A study of Mus musculus with 20 samples.

Results

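The acute phase genes measured here encode serum amyloid A (Saa1, Saa2, Saa3 and Saa4), orosomucoid (Orm1, Orm2 and Orm3), haptoglobin (Hp), hemopexin (Hpx) and lipocalin 2 (Lcn2). They were taken by symbol from probe sets annotated to only 1 gene, with the probe set of the highest mean over the 20 arrays used for each gene. All 10 genes were measured, by 12 such probe sets, and all 10 were among the 12947 of 18193 genes kept by the filter on low values. The arrays held liver RNA of BALB/c males that arrived at 6 weeks of age, with 1 array per mouse and 5 mice in each of 4 groups (of 6 mice kept per group). STZ mice had received an intraperitoneal injection of streptozotocin, which kills pancreatic beta cells, at 185 mg/kg in citrate buffer and ate a plain AIN93G diet for 14 days. The STZ + 0.1% phloridzin and STZ + 0.5% phloridzin mice had the same injection and ate this diet with phloridzin, a plant glycoside that blocks sodium-glucose cotransporters. These 3 groups entered the diet 1 week after STZ, with blood glucose of 330 to 590 mg/dL. Untreated mice ate the plain diet and had no injection of any kind, so diabetes, STZ itself and the injection cannot be told apart in any comparison with them.

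Acute phase proteins are plasma proteins that the hepatocyte secretes in larger amounts during infection, injury or inflammation, mainly under cytokines of the interleukin-6 and interleukin-1 type and with glucocorticoids as co-inducers. Serum amyloid A rides on high density lipoprotein, orosomucoid binds basic and lipophilic drugs and dampens immune responses, haptoglobin and hemopexin clear free haemoglobin and haem, and lipocalin 2 holds bacterial siderophores and so keeps iron from microbes. In mice Saa1 and Saa2 are the strongly inducible liver forms, Saa3 is also made by macrophages and adipocytes, and Saa4 is expressed constitutively.

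The genes lie in few places of the genome. In RefSeq's GRCm38.p6 the 4 Saa genes and Hpx are on chromosome 7, the 3 Orm genes on chromosome 4, Lcn2 on chromosome 2 and Hp on chromosome 8. Promoter windows of 300 bases (250 before and 50 after the annotated start) were found for 8 of the 10 genes, all but Orm1 and Hp. For Saa1, Saa3 and Orm3 the start used lies inside the bounds of the gene in RefSeq. A start at the outer end of these genes would give another window. Those of Saa1 and Saa2 were 95.3% identical over the alignment and those of Orm2 and Orm3 86.6%, while the other 26 pairs of windows lay between 47.2% and 54.2%. Below are the windows of Saa1 (chr7:46742931-46743230, minus strand), Saa2 (chr7:46751583-46751882, plus strand), Orm2 (chr4:63362199-63362498, plus strand), Orm3 (chr4:63355908-63356207, plus strand) and Lcn2 (chr2:32387690-32387989, minus strand). They are shown because these are the genes with the largest differences between groups and because they hold both pairs of similar copies. Capitals mark matches to TTGCNNAA, a sequence bound by C/EBP factors, which drive acute phase genes in liver.
Saa1: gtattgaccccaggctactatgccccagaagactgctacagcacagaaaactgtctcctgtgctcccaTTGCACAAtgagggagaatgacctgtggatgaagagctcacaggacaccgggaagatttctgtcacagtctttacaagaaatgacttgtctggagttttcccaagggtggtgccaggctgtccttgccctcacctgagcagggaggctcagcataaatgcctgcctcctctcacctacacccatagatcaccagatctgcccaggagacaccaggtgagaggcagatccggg
Saa2: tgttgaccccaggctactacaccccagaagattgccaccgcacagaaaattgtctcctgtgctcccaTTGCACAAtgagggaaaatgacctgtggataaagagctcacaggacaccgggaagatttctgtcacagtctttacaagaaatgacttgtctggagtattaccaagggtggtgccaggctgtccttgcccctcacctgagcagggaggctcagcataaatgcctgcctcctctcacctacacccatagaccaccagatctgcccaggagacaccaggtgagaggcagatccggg
Orm2: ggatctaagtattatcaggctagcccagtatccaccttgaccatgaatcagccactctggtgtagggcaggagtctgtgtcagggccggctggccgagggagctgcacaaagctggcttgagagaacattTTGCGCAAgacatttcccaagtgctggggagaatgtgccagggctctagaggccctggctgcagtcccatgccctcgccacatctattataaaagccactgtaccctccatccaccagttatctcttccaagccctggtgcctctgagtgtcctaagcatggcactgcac
Orm3: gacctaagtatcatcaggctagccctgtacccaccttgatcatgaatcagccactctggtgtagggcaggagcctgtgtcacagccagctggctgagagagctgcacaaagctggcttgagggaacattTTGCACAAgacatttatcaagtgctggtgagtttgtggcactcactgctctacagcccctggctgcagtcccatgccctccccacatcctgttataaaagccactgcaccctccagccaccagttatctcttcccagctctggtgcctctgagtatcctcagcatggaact
Lcn2: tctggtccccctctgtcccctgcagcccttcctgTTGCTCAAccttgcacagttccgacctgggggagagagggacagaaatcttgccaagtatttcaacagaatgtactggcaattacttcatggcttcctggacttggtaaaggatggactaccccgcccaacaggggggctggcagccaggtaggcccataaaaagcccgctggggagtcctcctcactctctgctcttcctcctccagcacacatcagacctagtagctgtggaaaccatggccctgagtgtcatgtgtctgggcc

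The C/EBP sequence was searched on both strands and was found in all 8 windows, against 10.8% of the 32851 promoter windows of the same length. Its first base lay 182 bases before the start in Saa1 and 183 in Saa2, 120 in Orm2 and 121 in Orm3, and 216 in Lcn2. In Orm2 the match TTGCGCAA reads the same on both strands and is 1 place. Saa3 held 1 match, on the opposite strand, Saa4 held 2 and Hpx held 1. A STAT sequence (TTCNNNGAA, in 8.3% of all windows), an NF-kB sequence (1.63%) and a glucocorticoid receptor sequence (0.475%) had no match in the 8 windows, and none of them overlaps the C/EBP matches. These are matches of letters in a short window, in which the paired copies share most of their sequence. They show neither a binding site nor, where there is no match, the lack of one.

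Signals were linear and in arbitrary units. On every array the trimmed mean, with 2% of probe sets left off at either end, was 100. Array medians lay between 11.1 and 17.1, and a signal at or below 17.1, the highest of these medians, is taken here as not above background. Among the arrays 0.1% phloridzin replicate 4 stood apart, with 88 genes over a signal of 10000 (6 to 47 on the other arrays) and a bioD spike-in signal of 14067, against 3097 to 4794 on the others. The bioD signal was also lower on STZ arrays (3097 to 3795) than on untreated arrays (3997 to 4794). Untreated replicate 5 stood apart in its Gapdh 3'/5' signal ratio, 1.07 against 0.676 to 0.797 on the other arrays, but not in that of actin. Its actin ratio was 2.48, against 1.62 to 2.52 on the other arrays. This array also had the lowest array weight of its group (0.778, against 1.30 to 1.71). It held the lowest untreated signals of Saa2, Orm2, Orm3 and Lcn2. Without it, the differences for STZ minus untreated were −1.23 for Saa2 (not called, limma adjusted p = 0.0524), 0.94 for Orm2 (0.0223), 1.27 for Orm3 (0.00299) and 1.23 for Lcn2 (0.0228). The part of the spike-in signal in the results was not tested. The labelled tissue was borne out by hepatocyte markers: all 7 on the array were above background in all 4 groups. The number of arrays limits the precision, and for the difference between STZ and untreated mice the 95% interval had a median half-width of 0.30 log2 units over genes. Fold changes below are of the signal plus 16, and the threshold for a call was an adjusted p of 0.05 (limma, Benjamini-Hochberg over all 12947 genes).

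**Figure D1:**
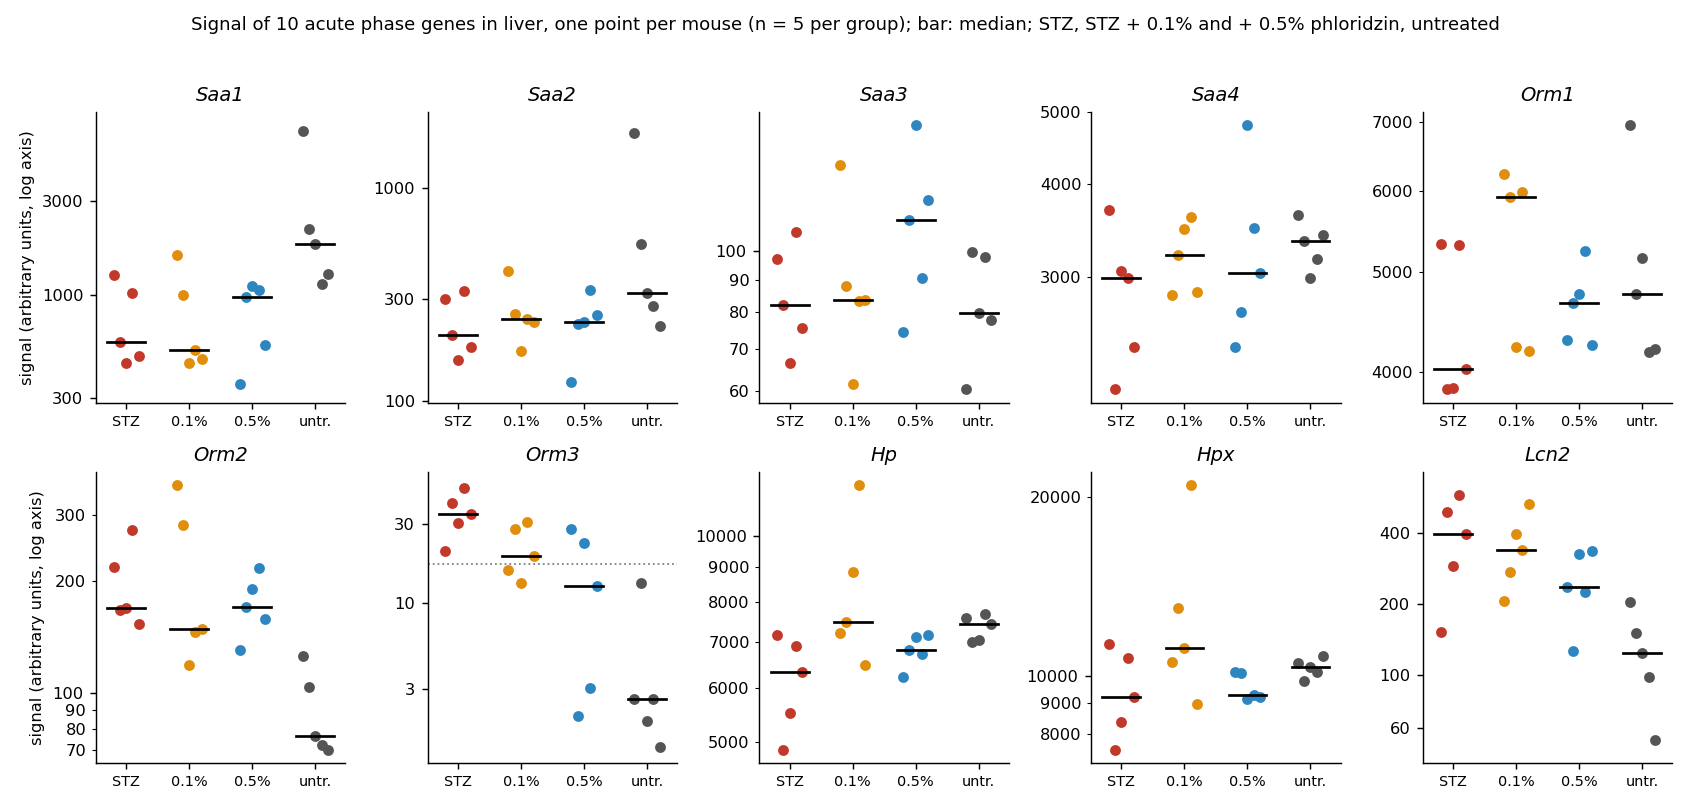
Signal (log axis, arbitrary units) of each of the 10 genes in each mouse, 5 mice per group, with the group median as a bar. The dotted line for Orm3 is the background limit of 17.1. Saa1 sits lower, and Orm2, Orm3 and Lcn2 sit higher, in STZ mice than in untreated mice.

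Acute phase genes did not move as one block between STZ and untreated mice. Orm2, Orm3 and Lcn2 were higher in STZ liver and Saa1 was lower, and Saa2, Saa3, Saa4, Orm1, Hp and Hpx were not called. That makes 3 of 10 genes higher, where 6.9% of all genes tested were called higher, and 1 lower, where 6.89% were called lower. The median difference of the 10 genes was −0.16, against −0.05 over all genes. Arrays of STZ and untreated mice did not overlap for Orm2 and Orm3, both higher in STZ, while 6.12% of all genes were separated in this direction. For 0 of the 10 genes did all STZ arrays lie below the untreated ones, against 6.75% of all genes. Orm3 passed the filter only through the STZ-injected groups. Its untreated mean on the log2 scale, 4.32, lay below the filter's cut of 4.61, so its place in these counts is not independent of the filter. The 10 genes were also chosen with earlier results of these data known, so the counts are no test of them as a set. In liver RNA as a whole, a lower level can come from fewer cells of a type or from less RNA per cell, and these cannot be told apart.

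Saa1 had signals of 1265, 574, 449.7, 1025.5 and 488 in the 5 STZ mice. It had 1584, 994, 451, 523 and 469.6 in the 0.1% phloridzin mice and 354, 973, 1105, 1059 and 557 in the 0.5% phloridzin mice, against 6785, 2168, 1806, 1129 and 1277 in untreated mice. Of the 15 STZ-injected mice, 13 had a lower Saa1 signal than every untreated mouse, and the exceptions were STZ replicate 1 and 0.1% phloridzin replicate 1. The difference was −1.55 ± 0.45 log2 units for STZ minus untreated (SE, n = 5 per group, a signal 2.93-fold lower in STZ, limma adjusted p = 0.0262). It was −1.53 for the 0.1% phloridzin group (adjusted p = 0.0240) and −1.46 for the 0.5% phloridzin group (adjusted p = 0.0377), each minus the same 5 untreated arrays.

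The calls for Saa1 depended on single mice and, for 0.5% phloridzin, on the processing. Untreated replicate 1 had a signal of 6785, and without it the difference was −1.13 for STZ (adjusted p = 0.0787), −1.11 for 0.1% phloridzin (0.0730) and −1.04 for 0.5% phloridzin (0.110). In STZ mice the call was also lost on leaving out untreated replicate 2 (0.0519) or one of STZ replicates 2, 3 and 5 (0.0561, 0.0671 and 0.0704). The 0.1% phloridzin call ended without replicate 3, 4 or 5 of that group (0.0634, 0.0592 and 0.0674). The 0.5% phloridzin call ended without untreated replicate 2 or 3 (0.0693 and 0.0599) or 0.5% phloridzin replicate 1 or 5 (0.120 and 0.0954). It also ended with no filter (0.0508), a pseudocount of 1 (0.0565), only the 2 groups compared (0.0522), a trended robust prior (0.0625) and all probe sets fitted separately (0.0638). The direction was the same in each of these.

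Saa2, the neighbour and near copy of Saa1, followed it in most mice. Its signals were 301, 204, 157, 330.1 and 180.5 in STZ mice, 408, 257, 172, 243 and 236 in 0.1% phloridzin mice and 123, 229, 236, 331 and 254 in 0.5% phloridzin mice. Untreated mice had 1810.1, 544, 322.5, 278 and 226. Of the 5 untreated values, 3 lay within the range of the STZ-injected mice, and untreated replicate 1 was again the highest of all. The difference was −0.98 ± 0.40 for STZ minus untreated and was not called (limma adjusted p = 0.107), nor was it for 0.1% (−0.82, 0.164) or 0.5% phloridzin (−0.99, 0.108). With array weights, which count less consistent arrays for less, the STZ difference was −1.21 and was called (adjusted p = 0.0340). Without untreated replicate 1 it was −0.50 (0.278), and those of 0.1% and 0.5% phloridzin were −0.34 (0.460) and −0.50 (0.284). Whether Saa1 and Saa2 differ in their response was not tested.

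The probes for Saa1 and Saa2 do not separate these copies with certainty. RefSeq lists each symbol as a synonym of the other, the probe set used for Saa2 is of a type that can bind similar transcripts, and a second probe set annotated to Saa1 was designed on a transcript that RefSeq assigns to Saa2. That second probe set gave −1.45 for STZ minus untreated (2.73-fold lower, adjusted p = 0.0405 in a fit of all 34945 probe sets), −1.34 for 0.1% phloridzin (0.0491) and −1.31 for 0.5% phloridzin, which was not called (0.0689). In that fit the probe set used for Saa1 was not called for 0.5% phloridzin either (0.0638).

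Saa3, which macrophages and adipocytes also make, had signals of 66.3 to 107 in STZ mice. It had 61.6 to 136 in 0.1% phloridzin and 74.4 to 158 in 0.5% phloridzin mice, against 60.3 to 99.7 in untreated mice. All 4 ranges overlapped. The difference was 0.04 for STZ minus untreated (95% interval −0.34 to 0.41, limma adjusted p = 0.920) and 0.34 for 0.5% phloridzin minus untreated (−0.04 to 0.71, adjusted p = 0.234). Saa4, the constitutive form, had signals of 2113 to 3696 in STZ, 2835 to 3609 in 0.1% phloridzin and 2407 to 4805 in 0.5% phloridzin mice, against 2990.5 to 3629.75 in untreated mice. Its difference was −0.24 for STZ minus untreated (−0.57 to 0.10, adjusted p = 0.352), and its other probe set gave −0.23.

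Orm2, 1 of 3 neighbouring orosomucoid genes, was higher in each group that had received STZ. It had signals of 217, 166, 169, 274 and 153 in STZ mice, 360.2, 281, 119, 145 and 148 in 0.1% phloridzin mice and 129.9, 169, 189.5, 215 and 158 in 0.5% phloridzin mice. Untreated mice had 125, 103, 76.6, 72.3 and 70.3. All STZ and all 0.5% phloridzin mice lay above every untreated mouse, and 1 of the 0.1% phloridzin mice (119) lay below untreated replicate 1. The difference was 1.00 ± 0.24 for STZ minus untreated (SE, n = 5 per group, 2.00-fold, limma adjusted p = 0.00780). It was 1.01 for 0.1% phloridzin (2.02-fold, 0.00649) and 0.85 for 0.5% phloridzin (1.80-fold, 0.0239), each minus the same untreated arrays. With 1 array left out, the STZ and 0.1% calls held throughout. The 0.5% call ended without untreated replicate 3, 4 or 5 (adjusted p of 0.0558, 0.0528 and 0.0564) or 0.5% phloridzin replicate 3 (0.0541).

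Orm3, whose promoter window is 86.6% identical to that of Orm2, was above background in STZ mice, with signals of 20.6, 39.8, 30.1, 49.1 and 34.3. The 0.1% phloridzin mice had 15.7, 28.0, 13.2, 30.8 and 19.0 and the 0.5% phloridzin mice 27.9, 2.08, 22.9, 3.06 and 12.7. Untreated mice had 2.62, 13.1, 1.92, 2.62 and 1.35, all below the limit of 17.1. All STZ mice were above the limit, against 3 of 5 on 0.1% phloridzin, 2 of 5 on 0.5% phloridzin and 0 of 5 untreated. Because the untreated level is not above background, no fold is given. On the scale of log2(signal + 16) the difference was 1.32 ± 0.23 for STZ minus untreated (limma adjusted p = 0.000766) and 0.88 for 0.1% phloridzin minus untreated (0.0115), and for 0.5% phloridzin it was 0.48 and not called (0.175). The size of these values is set by the number added to the signal: with a pseudocount of 1 they were 3.04 (0.00252), 2.35 (0.0103) and 1.31 (0.148). The 0.1% call ended without both untreated replicate 1 and 0.1% phloridzin replicate 4, a pair chosen after their values were seen (0.77, adjusted p = 0.0707).

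Orm1 had signals of 3845 to 5326 in STZ, 4194 to 6230 in 0.1% phloridzin and 4251 to 5247 in 0.5% phloridzin mice, against 4179 to 6949 in untreated mice. These ranges overlapped. The difference was −0.17 for STZ minus untreated (95% interval −0.48 to 0.15, limma adjusted p = 0.511), 0.08 for 0.1% phloridzin (adjusted p = 0.780) and −0.10 for 0.5% phloridzin (0.731). The orosomucoid genes thus gave 2 called differences and 1 that was not called in STZ mice, and the difference between these responses was not tested.

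Lcn2, the siderophore-binding lipocalin, was called higher in STZ mice. Its signals were 152, 492, 293, 582 and 399 in STZ mice, 206, 275, 397, 342 and 532 in 0.1% phloridzin mice and 236, 127, 329, 225 and 336 in 0.5% phloridzin mice. Untreated mice had 205, 152, 125, 98.3 and 53.2. STZ replicate 1 was the 1 STZ mouse inside the untreated range, the 0.1% phloridzin mice all lay above it, and 0.5% phloridzin replicate 2 lay within it. The difference was 1.46 ± 0.34 for STZ minus untreated (SE, n = 5 per group, 2.76-fold, limma adjusted p = 0.00702) and 1.40 for 0.1% phloridzin minus untreated (2.64-fold, 0.00819). Both calls held with each array left out, with highest adjusted p-values of 0.0239 and 0.0286.

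In 0.5% phloridzin mice Lcn2 was 0.94 ± 0.34 above untreated mice and was not called (limma adjusted p = 0.0748). Without 0.5% phloridzin replicate 2 it was 1.14 (0.0263), and with array weights 0.92 (0.03275), and both are calls. By mean, the order of the groups was STZ, 0.1% phloridzin, 0.5% phloridzin and untreated, and none of the 3 pairs of neighbours in this order passed the test.

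Lcn2 and Saa3 are also made by neutrophils, macrophages and fat, so markers of these cells were read beside them. Of all genes 6.9% were called higher and 6.89% lower in STZ minus untreated, so small counts on these short lists say little of the cells. Of 9 neutrophil markers on the array, 6 passed the filter on low values and 0 of these were called in STZ minus untreated. The summed signal of all 9 was 138 to 215 in STZ mice, against 209 to 282 in untreated mice. Of the 9, 6 in STZ mice and 5 in untreated mice were not above background, and S100a8 averaged 48.6 in STZ and 75.7 in untreated mice. Kupffer cell and macrophage markers summed to 3172 to 4503 in STZ mice, against 3038 to 3652 in untreated mice, with 1 of 10 called higher, the scavenger protein gene Cd5l (0.52, limma adjusted p = 0.0166). Of the 5 monocyte markers 3 passed the filter, of which Lyz2 was called lower (−0.52, adjusted p = 0.0397, a call that ended without any of the untreated replicates, without STZ replicate 2, 3 or 5, and with median centring). Adipocyte markers summed to 31.7 to 55.9 in STZ mice, against 9.60 to 35.1 in untreated mice. All 4 of these were not above background in untreated mice and 3 of 4 in STZ mice, where the lipid droplet gene Cidec averaged 19.8 and was called higher (0.53, adjusted p = 0.0201, not called without untreated replicate 5). The defining markers Adipoq, Lep and Retn were at mean signals of at most 8.96 in every group. Of 6 acinar pancreas markers, 4 were not above background in either group, and the elastase gene Cela1 was called lower (−1.52, adjusted p = 0.00161), with a mean signal of 573 in STZ mice and 1611 in untreated mice. The part of macrophages or fat in the results for Lcn2 was not tested.

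Hp and Hpx, the scavengers of haemoglobin and haem, had high signals in every mouse. Hp had 4874 to 7163 in STZ mice, 6480 to 11844.5 in 0.1% phloridzin mice and 6212 to 7169 in 0.5% phloridzin mice, against 7001 to 7679 in untreated mice. The difference was −0.27 for STZ minus untreated (95% interval −0.55 to 0.01, limma adjusted p = 0.195). Hpx had 7527 to 11348 in STZ mice, 8981 to 20932 in 0.1% phloridzin mice and 9150.5 to 10179 in 0.5% phloridzin mice, against 9827 to 10807 in untreated mice. Its difference was −0.15 for STZ minus untreated (−0.48 to 0.19, adjusted p = 0.592). Untreated mice were the most alike, with coefficients of variation of 4.25% for Hp and 3.57% for Hpx. The 0.5% phloridzin mice were close to them, at 5.66% and 5.31%. These coefficients were 15.6% and 16.9% in STZ mice and 25.3% and 36.3% in 0.1% phloridzin mice. The differences in spread were not tested. The highest values of both genes were those of 0.1% phloridzin replicate 4, the array with the brightest genes.

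In comparisons with the same untreated arrays, 0.1% phloridzin mice had 3 genes called higher (7.76% of all genes) and 1 called lower (8.98% of all genes). They were Orm2, Orm3 and Lcn2, and Saa1. Orm3 is counted here under the limit of the filter given above. In 0.5% phloridzin mice 1 gene, Orm2, was called higher (6.53% of all genes) and 1, Saa1, lower (6.18% of all genes). The count for 0.5% phloridzin lay between 0 and 3 genes with 1 array left out. Since the 3 comparisons share their untreated arrays, their likeness is not independent.

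**Figure D2:**
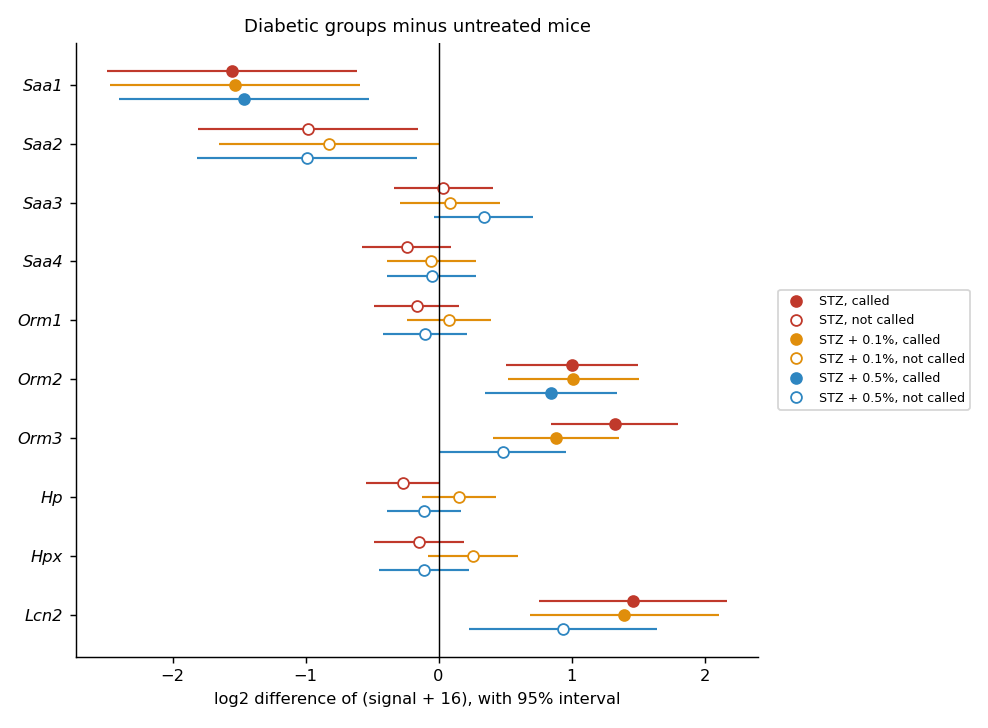
Difference from untreated mice (log2 of signal + 16) for each gene with its 95% interval, for STZ, STZ + 0.1% and STZ + 0.5% phloridzin mice (n = 5 each). Filled points were called at an adjusted p under 0.05: Saa1 at −1.55 to −1.46 and Orm2 at 0.85 to 1.01 in all 3 groups, and Orm3 and Lcn2 in 2 of them. All 3 groups are set against the same untreated arrays.

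What phloridzin changed in STZ mice was read against the STZ mice on the plain diet, and both doses share these 5 arrays. For 0.1% phloridzin minus STZ, 0 of the 10 genes were called, as were 0% of all genes (limma). At an unadjusted p under 0.05 there were 2 of the 10 and 685 of all genes. For 0.5% phloridzin minus STZ, 0 of 10 and 0% of all genes were called, with 1 of 10 and 622 at an unadjusted p under 0.05. Between the doses, 0.5% minus 0.1% phloridzin, 0 of 10 and 0% were called, with 1 of 10 and 840 at an unadjusted p under 0.05. Of the 12947 genes, 5.29%, 4.80% and 6.49% had such a p.

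The intervals show what these comparisons could and could not see. For Saa1 the difference was 0.02 (95% interval −0.92 to 0.96) with 0.1% and 0.09 (−0.85 to 1.03) with 0.5% phloridzin. STZ minus untreated was −1.55 with a wide interval (−2.49 to −0.61), and it shares the STZ arrays. These intervals alone do not show how much of that difference phloridzin could have undone. For Orm2 it was 0.01 (−0.48 to 0.51) with 0.1% and −0.16 (−0.65 to 0.34) with 0.5% phloridzin. For Lcn2 it was −0.06 (−0.77 to 0.64) with 0.1% and −0.53 (−1.24 to 0.18) with 0.5% phloridzin.

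Orm3 differed from STZ mice by −0.84 ± 0.23 with 0.5% phloridzin (limma unadjusted p = 0.00144, adjusted p = 0.859) and −0.44 with 0.1% (0.0669, adjusted p = 0.921). Its signals of 2.08 to 27.9 in 0.5% phloridzin mice overlapped those of 20.6 to 49.1 in STZ mice. The mean of the 0.5% phloridzin mice, 13.7, was not above background, and with a pseudocount of 1 the difference was −1.74 (adjusted p = 0.962). Hp was 0.42 ± 0.13 above STZ mice with 0.1% phloridzin (unadjusted p = 0.00471, adjusted p = 0.921) and Hpx 0.41 ± 0.16 (0.0206, adjusted p = 0.921). Without 0.1% phloridzin replicate 4 these were 0.29 for Hp and 0.22 for Hpx. With quantile normalization, which gives every array the same distribution, Hpx was 0.07 above STZ mice. Hpx was also lower by 0.37 with 0.5% than with 0.1% phloridzin (unadjusted p = 0.0338, adjusted p = 0.753).

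**Figure D3:**
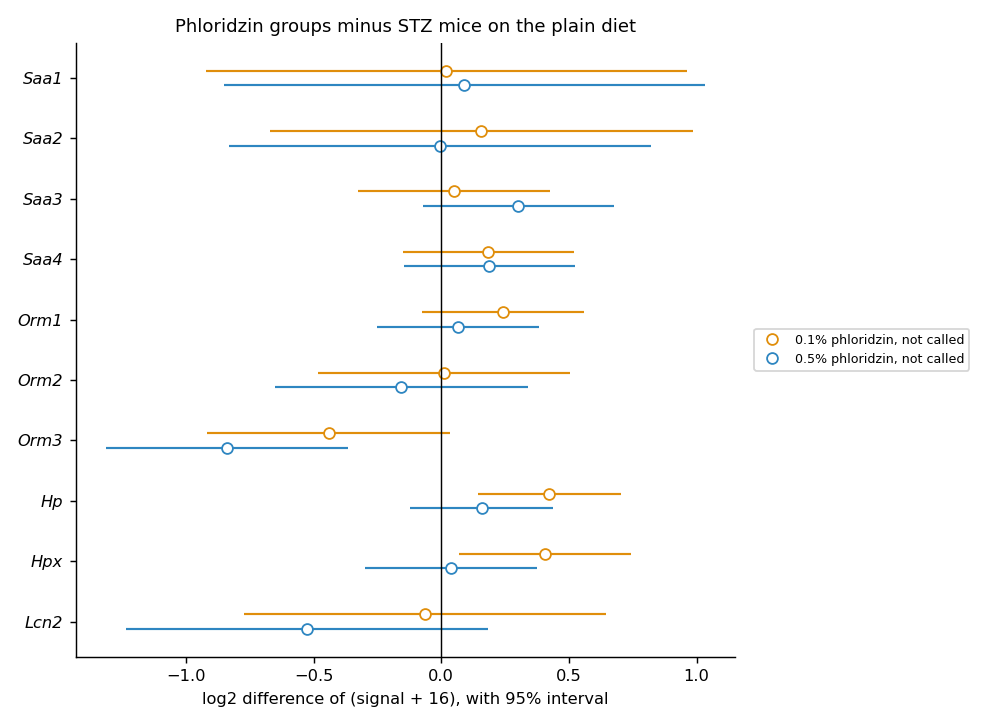
Difference of 0.1% and 0.5% phloridzin mice from STZ mice on the plain diet (log2 of signal + 16), with 95% intervals (n = 5 per group, the same STZ arrays for both). No gene was called. The intervals reach from −0.92 to 0.96 for Saa1 with 0.1% phloridzin and from −1.31 to −0.36 for Orm3 with 0.5% phloridzin.

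Mice of 1 group varied together in some of these genes. Over the 20 arrays, after group means were removed, Saa1 and Saa2 correlated at r = 0.89 (Spearman rho 0.90; r = 0.82 over 18 arrays without the 2 farthest from the median of Saa1), the highest of 45 pairs. Saa1 also correlated with Orm1 (r = 0.86, rho 0.83; 0.79 without 2 arrays) and with Orm2 (r = 0.86, rho 0.85; 0.84 without 2 arrays), although Saa1 was called lower and Orm2 higher in STZ mice than in untreated mice. In untreated replicate 1, Saa1, Saa2, Saa4, Orm1, Orm2 and Lcn2 were all at the highest signal of their group. Orm2 and Orm3, the pair with similar promoter windows, correlated at r = −0.01 (rho −0.08), with Orm3 below background in many arrays. Hp and Hpx correlated at r = 0.87 but at rho 0.56, and at r = 0.67 without 2 arrays. These values describe arrays that share their scaling, and the probes for Saa1 and Saa2 may each bind both transcripts. The part of this binding in their correlation was not tested.

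**Figure D4:**
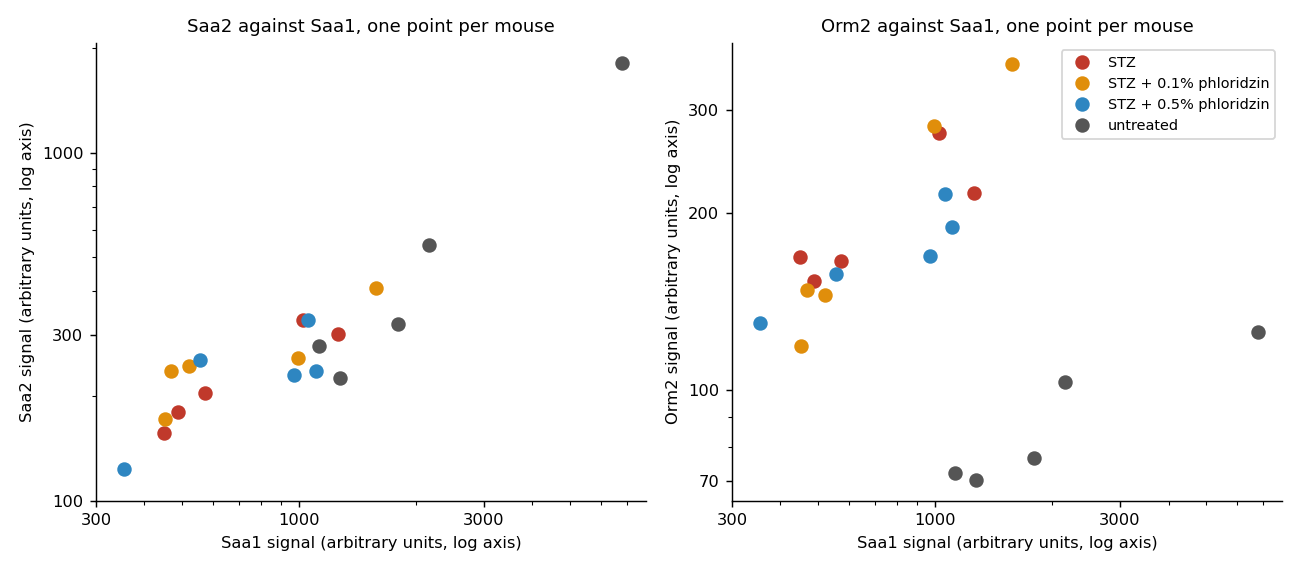
Signals of Saa2 (left) and Orm2 (right) against Saa1 in each of the 20 mice, on log axes. Saa2 runs with Saa1 across all groups, up to untreated replicate 1 at 6785 and 1810.1, but the probes do not separate these copies with certainty. Orm2 runs with Saa1 within groups, but the untreated mice lie apart, with more Saa1 and less Orm2.

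The genes most like the mean of the called genes Saa1, Orm2, Orm3 and Lcn2 in this within-group variation were Phlda3 (r = 0.73), Nme1 (r = 0.73) and Fgl1 (r = 0.69), each over 20 arrays. That mean is not 1 shared profile. Saa1 and Orm2 correlated at 0.86 and Orm3 and Lcn2 at 0.51, but either of the first with either of the second at −0.20 to −0.01. Of these, Fgl1, a hepatocyte-secreted protein, was higher in STZ than in untreated mice by 1.06 (limma adjusted p = 0.00275) and Phlda3, a target of p53, by 2.70 (1.99e-08), while Nme1 was 0.02 higher and not called (0.914). For single genes the nearest were Atp11a for Saa1 (r = 0.87), Nme1 for Saa2 (0.84), Pigh for Orm1 (0.92), Tmem62 for Orm2 (0.87), Oat for Orm3 (0.78) and Apoc3 for Hpx (0.98). The Hpx value includes 0.1% phloridzin replicate 4. All these genes were picked as the highest correlations among the many other genes kept by the filter. How high such a maximum lies by chance, and whether these genes are linked to the acute phase genes, was not tested.

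Other genes of the acute phase were read from lists, whose counts stand beside the shares of all genes given above. Those were 6.9% higher and 6.89% lower in STZ mice, 7.76% and 8.98% with 0.1% phloridzin, and 6.53% and 6.18% with 0.5% phloridzin. Counts near these shares say nothing particular of a list. Of 17 other positive acute phase genes, 1 was called higher and 3 lower in STZ minus untreated (median −0.18). The higher one was the protease inhibitor Serpina3n (0.37, limma adjusted p = 0.0267), and the lower ones were the fibrinogen chain Fgb (−0.41, 0.0404), the copper carrier ceruloplasmin, Cp (−0.40, 0.0271), and the glycoprotein gene Lrg1 (−0.41, 0.0212). With median centring of the arrays the calls of Fgb, Cp and Lrg1 ended (adjusted p of 0.114, 0.109 and 0.0971). All 3 were also lost on leaving out untreated replicate 1, or STZ replicate 2, or STZ replicate 3. Those of Fgb and Cp ended in addition without untreated replicate 4 or 5, and that of Fgb without untreated replicate 2 or 3 or STZ replicate 5. For Serpina3n, leaving out one of untreated replicates 2, 3 and 5 or of STZ replicates 4 and 5 ended the call. Serpina3n was called higher with 0.1% phloridzin (0.58, adjusted p = 0.00136), without exception over the arrays left out, and with 0.5% phloridzin (0.40, 0.0208), where the call ended without replicate 1 or 5 of that group.

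Among 11 negative acute phase genes, which fall in inflammation, 1 was called higher and 0 lower in STZ mice. It was Serpina6, the corticosteroid-binding globulin (1.11, 2.16-fold, limma adjusted p = 0.000132), and it was also higher with 0.1% phloridzin (1.37, 1.55e-05) and 0.5% phloridzin (1.16, 0.000116). In both phloridzin groups 2 of the 11 were called higher (7.76% of all genes with 0.1% and 6.53% with 0.5% phloridzin), the other being Fetub (0.39, 0.0418 and 0.42, 0.0344). Its call was lost for 8 of 10 arrays left out singly with 0.1% and 7 of 10 with 0.5% phloridzin, untreated replicates 1, 2, 3 and 5 among them in both. Albumin, transthyretin and the other 8 were not called in STZ mice.

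Of 20 genes that carry cytokine signals to the acute phase, 1 was called higher and 1 lower in STZ mice, shares close to those of all genes (6.9% and 6.89%): the kinase Jak1 (0.41, limma adjusted p = 0.0116) and the interleukin-1 receptor chain Il1rap (−0.33, 0.00636). Both calls ended with the mean of probe sets (0.277 and 0.478), and that of Il1rap with median centring (0.0604). With 0.1% phloridzin 3 were higher and 2 lower than in untreated mice (7.76% and 8.98% of all genes). The higher ones were the interleukin-6 receptor Il6ra (1.56, 2.94-fold, 0.0106), Stat3, the factor that conveys its signal (0.67, 0.00588), and Jak1 (0.34, 0.0290). The lower ones were Il1rap (−0.43, 0.000743) and the kinase Jak2 (−0.34, 0.0250). With the mean of probe sets the calls of Stat3 (0.14, 0.297), Jak1 (0.132), Il1rap (0.225) and Jak2 (0.0680) ended. Those of Jak1 and Jak2 were also lost for 5 and 4 of 10 arrays left out singly. With 0.5% phloridzin 1 was higher, Il6ra (1.32, 0.0333; not called with the mean of probe sets, 0.0745, nor without untreated replicate 3, 4 or 5 or 0.5% phloridzin replicate 1, 3 or 5), and 1 lower, Il1rap (−0.33, 0.00643; 0.238 with the mean of probe sets).

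Of 8 genes that handle haem, haemoglobin or siderophores, 1 was called in STZ mice, the biliverdin reductase Blvrb (0.68, 1.61-fold, limma adjusted p = 0.000935). It was also higher with 0.1% phloridzin (0.74, 0.000381) and with 0.5% phloridzin (0.78, 0.000318). Of 12 glucocorticoid-responsive genes, 6 were called higher and 0 lower in STZ mice (median 0.79). The 4 with the lowest p were Cdkn1a (1.98), the metallothioneins Mt1 and Mt2 (3.78 and 3.65) and the steroid receptor co-chaperone Fkbp5 (1.90). Cdkn1a is also a target of p53 and the metallothioneins also respond to metals. Sgk1 (0.90) and Per1 (0.83) were called too, and the Per1 call was lost for 8 of 10 arrays left out singly. Nr3c1, Tsc22d3, Tat, Pck1, Dusp1 and Zbtb16 were not called in STZ mice. The list was chosen with earlier results of these data known, so its counts and median are no test of it as a set. With 1 array left out, 5 to 7 of the 12 were called higher. The counts were 7 higher and 1 lower with 0.1% phloridzin (7.76% and 8.98% of all genes), against the same untreated arrays. With 0.5% phloridzin 5 were higher (6.53% of all genes). The lower gene was Nr3c1, the glucocorticoid receptor (−0.55, limma adjusted p = 0.0137), and its call ended with the mean of probe sets (0.208).

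**Figure D5:**
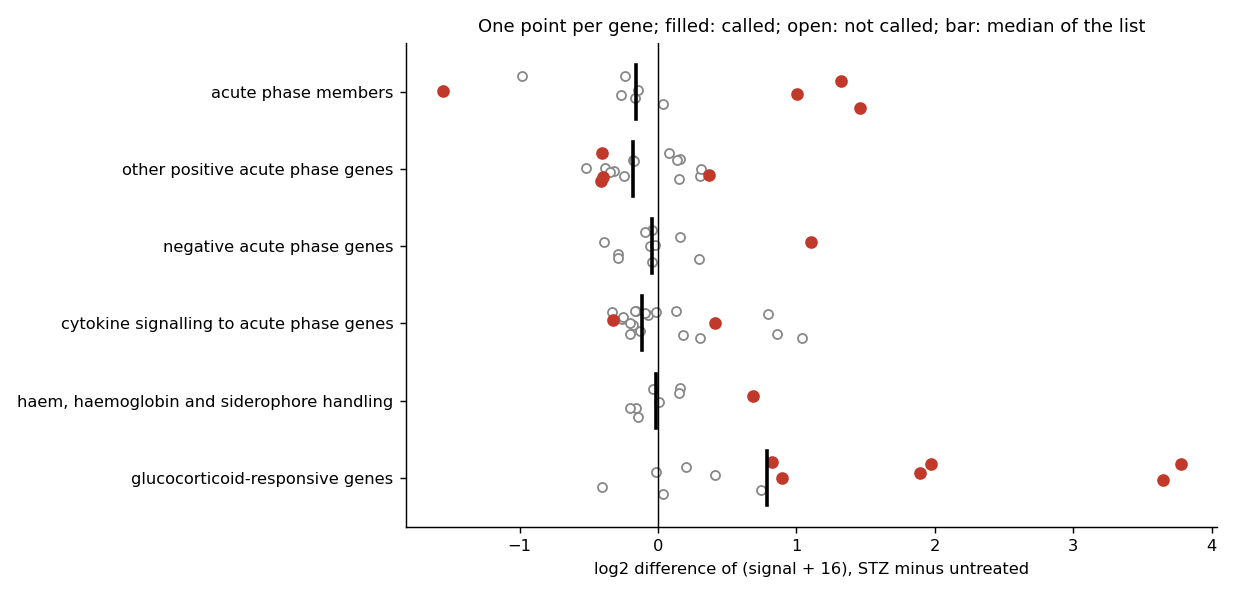
Difference between STZ and untreated mice (log2 of signal + 16) of the 10 acute phase genes (top row) and of the genes of 5 lists, 1 point per gene, with called genes filled and the median of each list as a bar. Medians are −0.16 for the 10 genes, −0.18 for the other positive acute phase genes and 0.79 for the glucocorticoid-responsive genes. The genes and lists were chosen with earlier results of these data known.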

How the data were processed

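Liver RNA of 20 mice was hybridised to Affymetrix mouse arrays. The intensity values were used as the authors deposited them: linear signals scaled to a trimmed mean of 100 per array, as the values show. No software for summarising probes into signals was named in the labels read here. Of 45101 probe sets, 34945 had 1 gene in the platform annotation, 932 had several and 9160 had none, and 64 were controls. Here log2(signal + 16) was taken, the probe set with the highest mean was kept per gene, and genes with a mean under the 40th percentile of probe sets were dropped. Group means were fitted in limma 3.58.1 (R 4.3.3) over all 20 arrays, with two-sided tests and Benjamini-Hochberg adjustment. The fit was tested on simulated data. Promoter windows came from RefSeq, GRCm38.p6, and were read with Python 3.11.15 (alignment with Biopython 1.88, figures with matplotlib 3.10.9). Alternatives changed the filter, pseudocount, scaling, probe sets, prior, weights and arrays. The genes and lists were chosen with earlier results of these data known, and the background limit was set from the data. Genes likest to a member were named by the highest correlation of deviations from group means. Replicate numbers name different mice and were not used to pair arrays in the main fit. Correlations of same-numbered arrays of different groups were −0.41 to 0.50, with 13 of 30 above 0.1. Those of differently numbered arrays were not taken, so whether arrays of 1 number shared a batch was not tested.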

Additional observations from a re-analysis of the deposited data

Results flagged for a closer look

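Orm3 in untreated replicate 2 stood apart from its group. Its signal was 13.1, against 1.35 to 2.62 in the other 4 untreated mice, and the gap to the nearest of these was 0.864 of the group's range on the scale tested, above the limit of 0.71. It was the 1 such case in 40 groups examined (10 genes in 4 groups). Chance gives such a gap in about 1 in 20 groups, so 1 case in 40 is no more than chance would give. All 5 untreated signals lay below the background limit of 17.1.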

How the results depend on the processing

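The STZ calls of Orm2, Orm3 and Lcn2 held under every alternative run that kept the gene, since a filter at the 60th percentile dropped Orm3. In 0.5% phloridzin minus untreated, 2 genes were called, but 1 with no filter, with a pseudocount of 1, with only the 2 groups compared, with a trended robust prior, with all probe sets fitted separately and without untreated replicate 1 and 0.1% phloridzin replicate 4, and 0 to 3 with single arrays left out. In 0.1% phloridzin minus untreated the count was 4, with 3 to 4 for single arrays left out and 2 without that pair of arrays. In STZ minus untreated it was 4, with 3 to 4 for single arrays left out. With a replicate block the counts were 4 for STZ, 4 for 0.1% and 2 for 0.5% phloridzin minus untreated, as without it, and 0 in each comparison between STZ-injected groups. Median centring moved the median of all genes by at most 0.08 and the share of calls that were higher in STZ minus untreated to 69.1%, against 50.0% in the main scaling and 55.0% with quantile normalization.

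Small differences that were not called changed sign, and the cause was not tested. With quantile normalization these were Orm1 in 0.1% phloridzin minus untreated (−0.0064) and Hpx in 0.5% phloridzin minus untreated (0.0049). With median centring they were Saa1 (−0.021) and Orm2 (−0.029) in 0.1% phloridzin minus STZ, Hpx in 0.5% phloridzin minus STZ (−0.021) and Saa4 in 0.5% minus 0.1% phloridzin (−0.015). With the mean of probe sets Saa4 was −0.056 in 0.5% minus 0.1% phloridzin and 0.012 in 0.1% phloridzin minus untreated. With array weights Saa3 was −0.028 in STZ minus untreated and Saa2 0.084 in 0.5% phloridzin minus STZ. With arrays left out, ranges in 0.1% phloridzin minus STZ were −0.267 to 0.231 (Saa1), −0.0065 to 0.288 (Saa2), −0.0889 to 0.155 (Saa3), −0.201 to 0.169 (Orm2) and −0.345 to 0.113 (Lcn2). In 0.5% phloridzin minus STZ they were −0.0628 to 0.350 (Saa1), −0.137 to 0.191 (Saa2) and −0.0395 to 0.108 (Hpx). In 0.5% minus 0.1% phloridzin they were −0.0864 to 0.358 (Saa1), −0.294 to 0.0341 (Saa2), −0.144 to 0.104 (Saa4) and −0.326 to 0.0442 (Orm2). Against untreated mice they were −0.0531 to 0.109 for Saa3 with STZ, −0.0521 to 0.191 for Saa3 with 0.1% phloridzin, and −0.198 to 0.0505 for Saa4 and −0.161 to 0.0222 for Orm1 with 0.5% phloridzin. Nothing in the labels says whether mice shared a cage or a processing day. Signals near background limit what can be said of Orm3.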
